A study of Mus musculus with 6 samples.

Results

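Centrosome and tubulin genes were examined in pre-B cells, the bone marrow cells that have rearranged an immunoglobulin heavy chain and divide before they rearrange a light chain. The genes were taken by name from the annotated probe sets of the arrays: the numbered Cep genes, the alpha, beta, gamma, delta and epsilon tubulins, the gamma-tubulin complex proteins, the augmin subunits (Haus) and 12 further genes, namely Pcnt, Cdk5rap2, Plk4, Sass6, Stil, Aspm, Nedd1, Cetn2, Cetn3, Aurka, Tpx2 and Numa1. The name rule used no measured value, but the members were chosen with earlier results of these data known. Shares of members set beside those of all genes are therefore descriptions and not tests. The rule took 77 of the 17372 genes that had a probe set with a single symbol. Of these, 68 had a mean value above the filter on dim probe sets and were tested among 11271 genes. Tuba1b and Tuba1c, 2 alpha tubulins, share probe sets that carry both symbols and are outside the rule.

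The cells came from mice aged 9 months. The 3 control samples are labelled only as control, and the 3 Mef2c-deficient samples came from Vav-Cre Mef2c fl/fl mice, in which Cre is made throughout the blood-forming system, so that the loss is not limited to B cells. Per the methods of the study, control mice were Mef2c fl/+ or fl/fl without Vav-Cre, or Mef2c fl/+ with it. The study used mice of both sexes. The labels do not say which control genotype or sex each array came from. Mef2c encodes a MADS box transcription factor. Per the methods of the study, pre-B cells were gated as B220+ IgM- CD43-, which holds no marker against plasmacytoid dendritic cells, which also bear B220. The samples are called independent in the methods without the animals being named, and the p-values therefore refer to the spread among these arrays, which may be technical.

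Centrosomes are pairs of centrioles in a protein scaffold that anchors gamma-tubulin ring complexes, from which microtubules, the polymers of alpha and beta tubulin, grow. A cell copies its centrioles once per division, and the copies then form the poles of the mitotic spindle. Several of the genes that drive this copying and build the spindle poles are transcribed mainly in dividing cells, whereas many scaffold, appendage and tubulin genes are also used between divisions.

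Values are log2 of the deposited intensities, and differences are the mean of the 3 Mef2c-deficient arrays minus the mean of the 3 control arrays. The median deposited intensity was 236 to 285 per array. The sources used here do not name the base with which the values were brought from the log scale of robust multiarray averaging to a linear one. The highest deposited value, 2144602, is 21.03 as log2 and 14.58 as a natural log, and 2865 values exceed 65535, where a 16-bit scanner saturates. If the base was e, each log2 difference below is 0.693 of the value printed. Levels of different genes cannot be compared, since each probe set has its own brightness. The deleted gene, Mef2c, was not analysed here and so cannot serve to check the genotypes. The SD of the genes' deviations from their group mean was 0.289 to 0.469 in the control arrays and 0.556 to 0.788 in the Mef2c-deficient arrays, highest in Mef2c-deficient replicate 3.

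Markers of other cells were read in each array. Of 15 pre-B markers listed, 12 were in the table and 12 lay above the filter, with summed intensities of 2195605 to 2735343 in control and 1445785 to 2324317 in Mef2c-deficient arrays. Of 14 markers of plasmacytoid dendritic cells, 11 were in the table. Their summed intensities were 44618 to 138166 in control and 87629 to 1189148 in Mef2c-deficient arrays, and the highest sum was that of Mef2c-deficient replicate 3. Of 10 neutrophil markers, 9 were in the table, with sums of 34264 to 178653 in control and 46175 to 1291489 in Mef2c-deficient arrays, again highest in Mef2c-deficient replicate 3. None of the markers in these 3 lists was at 0. In Mef2c-deficient replicate 3 the medians of the other lists, relative to the control mean, were 1.11 for monocytes and macrophages, 2.15 for T and NK cells, 0.60 for erythroid cells, 0.40 for megakaryocytes, -1.57 for plasma cells and -0.93 for mature B cells. In the same order they were 0.13, 0.46, 0.40, 0.64, -0.44 and -0.80 in replicate 1. In replicate 2 they were 0.19, -0.20, -0.01, 0.19, -0.49 and 1.24. The mature B markers summed to 181360 in Mef2c-deficient replicate 2, against 33380 to 84376 in control. Of the 4 mature B markers in the table, 2 had a higher and 2 a lower mean in Mef2c-deficient arrays. In such bulk samples, fewer cells of a type cannot be told apart from less RNA per cell.

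The promoters of the 7 members listed as expressed mainly in dividing cells, Plk4, Sass6, Stil, Aurka, Tpx2, Aspm and Cep55, are shown first because the 4 largest differences were among them. RefSeq windows of 300 bases (250 before and 50 after the transcription start, build GRCm38.p6) were found for 64 of the 77 members and for 6 of these 7, all but Tpx2. Capitals mark the cell-cycle homology region element TTTGAA and the NF-Y box CCAAT, on either strand, in the gene's own direction. The stretches run from 90 bases before to base 30 after the start, except that of Sass6, which runs from -219 to -100, where its element lies.
Aspm, chr1:139454683-139454802, plus strand: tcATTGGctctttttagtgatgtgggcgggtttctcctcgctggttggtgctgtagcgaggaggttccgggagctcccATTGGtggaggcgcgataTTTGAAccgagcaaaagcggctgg
Aurka, chr2:172370541-172370660, minus strand: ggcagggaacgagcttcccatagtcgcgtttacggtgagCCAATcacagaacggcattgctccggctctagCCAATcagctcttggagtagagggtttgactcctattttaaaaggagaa
Cep55, chr19:38054951-38055070, plus strand: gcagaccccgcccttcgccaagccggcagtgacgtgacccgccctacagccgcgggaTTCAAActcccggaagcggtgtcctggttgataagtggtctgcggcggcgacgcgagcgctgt
Plk4, chr3:40799861-40799980, plus strand: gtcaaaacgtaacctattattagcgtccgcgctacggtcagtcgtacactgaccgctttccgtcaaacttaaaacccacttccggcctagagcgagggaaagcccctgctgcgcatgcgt
Sass6, chr3:116594739-116594858, plus strand: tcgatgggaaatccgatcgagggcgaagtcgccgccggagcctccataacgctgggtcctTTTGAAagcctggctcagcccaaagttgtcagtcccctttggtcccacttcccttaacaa
Stil, chr4:115000028-115000147, plus strand: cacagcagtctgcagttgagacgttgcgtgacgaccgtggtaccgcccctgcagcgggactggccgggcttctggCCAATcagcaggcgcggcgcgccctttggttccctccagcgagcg

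In Aspm the element TTTGAA began at base 7 after the start, with CCAAT boxes beginning at -113, -88 and -12. In Aurka it began at base 33, past the stretch shown, with CCAAT at -51 and -19. Cep55 has 2 overlapping windows from neighbouring starts, and the element began at -33 from the start shown and at base 25 from the other. Sass6 held TTTGAA at -159 and no CCAAT, Stil held CCAAT at -241, -99 and -15 and no TTTGAA, and the window of Plk4 held neither. TTTGAA was in 15 of the 61 windows of tested members (24.6%), in 12.4% of the windows of all genes tested and in 17.9% of all 32851 windows. CCAAT was in 45.9% of the members' windows, 37.6% of those of genes tested and 37.4% of all windows. The 4 E2F sites searched (TTTGGCGC, TTTCCCGC, TTTGCCGC and TTTCGCGC) were in 4.92%, 3.87% and 2.26%. The MEF2 consensus was in 4.92% of the members' windows, in Cep164, Cep44 and Plk4, against 1.64% and 3.19%. These are matches of letters and not measured binding.

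Most of the members tested had a lower mean in Mef2c-deficient pre-B cells. The mean was lower for 62 of 68 (91.2%), as it was for 62.3% of all genes tested. The median difference of the members was -0.96 on the log2 scale, against -0.36 over all genes, which places the members -0.60 relative to that overall shift. Differences ran from -2.97 for Cep55, whose product completes the cut between daughter cells, to 0.55 for Tuba4a, an alpha tubulin.

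No member passed limma with Benjamini-Hochberg adjustment over all genes at 0.05, where 2 of 11271 genes (0.0177%) passed. The smallest adjusted p among members was 0.0745 in limma, for Aspm and Cep55. At an unadjusted limma p under 0.05, 34 members (50%) were lower and 0 higher, while among all genes 20.9% were lower and 5.32% higher. The 3 Mef2c-deficient arrays lay below the 3 control arrays for 35 members (51.5%), against 27.1% of all genes, and above them for 2 (2.94%), Tuba4a and Tuba8, against 10.6%. Of the 34 members with a lower unadjusted p, 32 had groups that did not overlap. Of the tested members 3, Cep72, Cep162 and Cep41, were above the filter in the control mean but not in the Mef2c-deficient mean. Without these 3, 31 of 65 members passed that unadjusted p as lower and the median was -0.94.

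The lower values were not carried by a single array. In each of the 3 Mef2c-deficient arrays taken alone, 51 of 68 members (75.0%) lay below the lowest control array, against 52.9%, 45.6% and 47.5% of all genes in replicates 1, 2 and 3. The members' medians relative to the control mean were -0.79, -0.69 and -1.11 in these arrays. The size of the shift depended on the scaling. The count of members lower at an unadjusted p under 0.05 was 22 after quantile normalization, cyclic loess or centring of the arrays on the kept probe sets, and 17 after centring on the genes tested. The share of all genes that were lower at this threshold was 11.1%, 10.2%, 10.7% and 6.48% under these 4 scalings, against 32.4% of the members under the first 3 and 25% under the last. Without Mef2c-deficient replicate 3, the median was -0.79, and 35 members (51.5%) were lower at an unadjusted limma p under 0.05, against 23.7% of all genes. In that fit 5 members (Aspm, Aurka, Cep55, Cep70 and Haus2) passed the limma adjusted p, as 159 of all genes did.

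**Figure D1:**
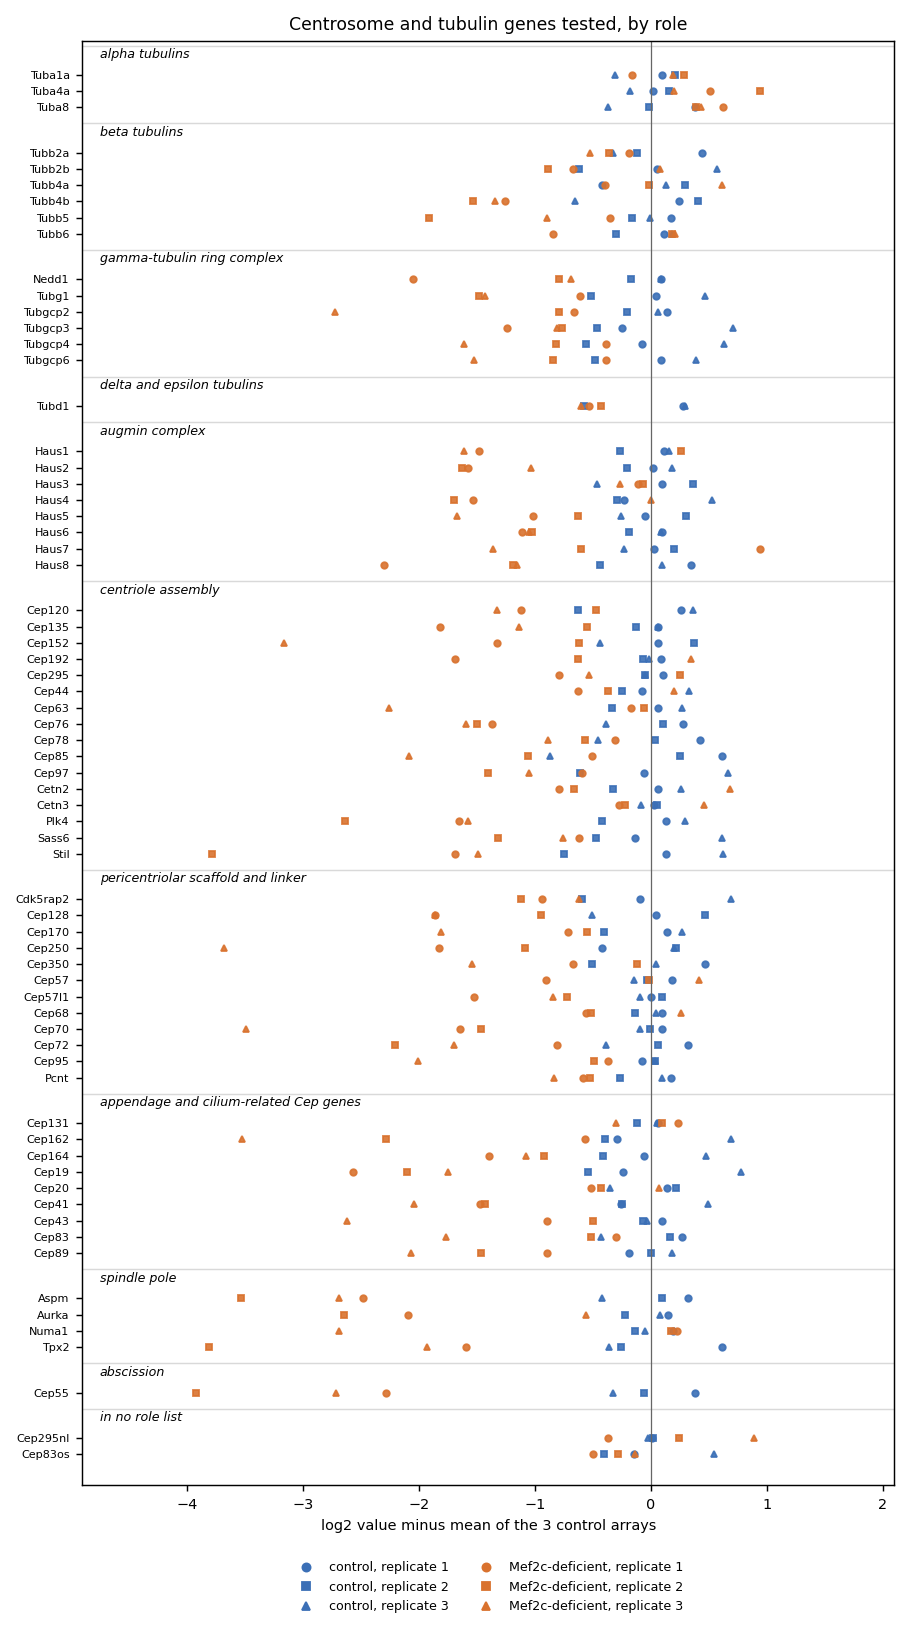
Each row is 1 of the 68 genes tested, and the horizontal axis is the log2 value of an array minus the mean of the 3 control arrays. Circles, squares and triangles are replicates 1, 2 and 3, blue for control and orange for Mef2c-deficient. The orange points lie left of 0 for most genes, with Cep55, Tpx2 and Stil far left in replicate 2 and Cep250 in replicate 3, and the alpha and beta tubulins at the top lie on both sides of 0.

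The 4 largest differences were those of Cep55, Aspm, Tpx2 and Stil, which act in the last step of division, at spindle poles and in centriole copying. The next 4 were those of Cep70, Cep250, Cep19 and Cep162, described with their groups. All 7 members listed as expressed mainly in dividing cells were lower at an unadjusted limma p under 0.05, with groups that did not overlap. Of all genes, 20.9% were lower at that threshold and 27.1% had all Mef2c-deficient arrays below all controls. The median difference of the 7 was -2.32, or -1.96 relative to all genes, against -0.94 for the other 61 members. The list was chosen with earlier results of these data known, so this contrast is a description and not a test. Cep55 had log2 values of 14.13, 13.69 and 13.42 in control and 11.46, 9.82 and 11.04 in Mef2c-deficient arrays, a difference of -2.97 ± 0.46 (SE, limma adjusted p = 0.0745). That is 4.17-fold lower if the base of the deposited scale was e, and 7.84-fold lower in the deposited values as they stand. Aspm, which organises spindle poles, had 13.32, 13.10 and 12.58 in control and 10.52, 9.47 and 10.32 in Mef2c-deficient arrays, a difference of -2.90 ± 0.38 (SE, limma adjusted p = 0.0745), or 4.03-fold lower with base e and 7.46-fold in the deposited values. In both genes the lowest control array was more than 1 log2 unit above the highest Mef2c-deficient array.

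Tpx2, which activates Aurora A on spindle microtubules, had 12.89, 12.01 and 11.92 in control and 10.68, 8.46 and 10.35 in Mef2c-deficient arrays, a difference of -2.44 ± 0.61 (SE, limma adjusted p = 0.105). Aurka, which encodes Aurora A kinase, had 13.70, 13.33 and 13.63 in control and 11.46, 10.91 and 13.00 in Mef2c-deficient arrays, a difference of -1.77 ± 0.53 (SE, limma adjusted p = 0.125). Its value in Mef2c-deficient replicate 3 lay closest to the controls, and after cyclic loess its difference of -1.21 no longer passed an unadjusted p of 0.05. The 3 genes that start a new centriole were also lower. Plk4, the kinase that triggers copying, had 12.21, 11.67 and 12.38 in control and 10.43, 9.45 and 10.52 in Mef2c-deficient arrays, a difference of -1.95 ± 0.39 (SE, limma adjusted p = 0.0861). Stil, which Plk4 phosphorylates, had 11.76, 10.88 and 12.25 in control and 9.94, 7.85 and 10.14 in Mef2c-deficient arrays, a difference of -2.32 ± 0.66 (SE, limma adjusted p = 0.118). Sass6 encodes the protein of the cartwheel on which a centriole is built. It had 10.55, 10.22 and 11.30 in control and 10.07, 9.37 and 9.94 in Mef2c-deficient arrays, a difference of -0.90 ± 0.38 (SE, limma adjusted p = 0.185). The call of Sass6 was lost without control replicate 1 (-0.96) or 3 (-0.59) or without Mef2c-deficient replicate 2 (-0.69), and under the 4 other scalings.

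For all 7 of these genes the lowest array was Mef2c-deficient replicate 2. Their median relative to the control mean was -1.69, -3.53 and -1.57 in Mef2c-deficient replicates 1, 2 and 3. Without replicate 2 the median difference of the 7 was -1.61. The other 61 members had their lowest Mef2c-deficient value in replicate 1 for 22 genes, replicate 2 for 10 and replicate 3 for 29.

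**Figure D2:**
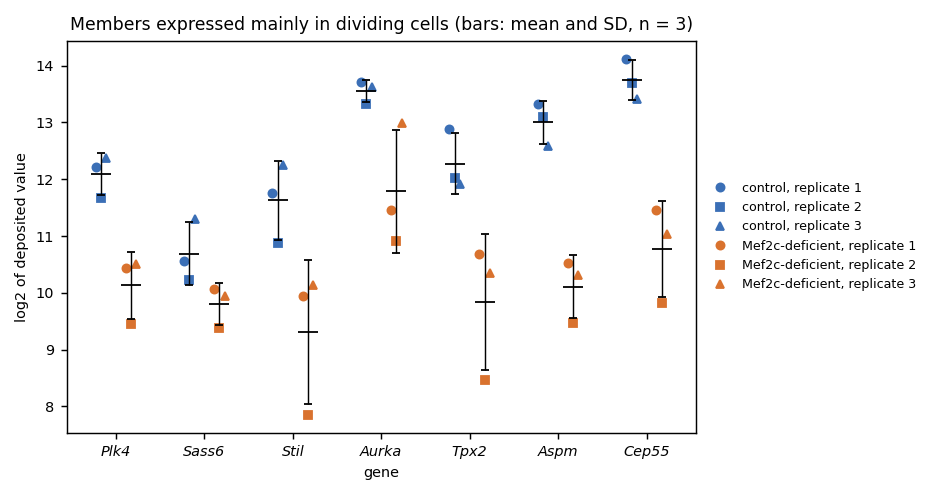
The vertical axis is log2 of the deposited value for the 7 members listed as expressed mainly in dividing cells, with blue points for control and orange points for Mef2c-deficient arrays and bars for the mean and SD of 3 arrays. Every orange point lies below every blue point of the same gene, and the squares of Mef2c-deficient replicate 2 are the lowest throughout. Brightness differs between probe sets, so heights are compared within a gene only.

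The alpha and beta tubulins, the building blocks of microtubules, had means on both sides of the controls. Of 9 tested, 5 had a lower and 4 a higher mean, 2 (22.2%) were lower at an unadjusted limma p under 0.05, near the 20.9% of all genes, and 0 were higher. Their median was -0.15 as deposited but 0.14 to 0.31 under the 4 other scalings. The 3 alpha tubulins all had higher means, a direction that held under all 5 scalings. Tuba4a had 13.60, 13.73 and 13.39 in control and 14.08, 14.51 and 13.78 in Mef2c-deficient arrays, a difference of 0.55 ± 0.30 (SE, limma adjusted p = 0.262). Tuba8 had 8.90, 8.50 and 8.15 in control and 9.14, 8.90 and 8.95 in Mef2c-deficient arrays, a difference of 0.48 ± 0.30 (SE, limma adjusted p = 0.30). Their Mef2c-deficient values were above all controls. Tuba4a passed an unadjusted p of 0.05 under the 4 other scalings (0.84 to 1.08), with array weights (0.63) and without Mef2c-deficient replicate 3 (0.72). Under these scalings 814 (quantile), 931 (cyclic loess), 1581 (kept probe sets) and 2278 (genes tested) of all genes passed as higher, against 600 as deposited. The probe set of Tuba1a has the suffix _x_at, which marks probes that can match more than 1 gene. Tuba1a had 17.48, 17.58 and 17.07 in control and 17.22, 17.67 and 17.57 in Mef2c-deficient arrays, a difference of 0.11 ± 0.29 (SE, limma adjusted p = 0.788), and its groups overlapped.

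Among 6 beta tubulins the median was -0.42 as deposited and -0.17 to 0.04 under the other scalings. Tubb4b had 15.81, 15.96 and 14.91 in control and 14.30, 14.03 and 14.21 in Mef2c-deficient arrays, a difference of -1.38 ± 0.35 (SE, limma adjusted p = 0.107). It was lower at an unadjusted p under 0.05 except after centring on the genes tested, where its difference was -0.92. Tubb5, a widely expressed beta tubulin, had 17.26, 16.92 and 17.08 in control and 16.73, 15.17 and 16.19 in Mef2c-deficient arrays, a difference of -1.05 ± 0.42 (SE, limma adjusted p = 0.175). Its unadjusted call was lost under each of the 4 other scalings (-0.95 to -0.59), without any of the 3 control arrays (-1.13 to -0.97) and without Mef2c-deficient replicate 2 (-0.62). The remaining 4 beta tubulins had groups that overlapped. Tubb2a had 12.94, 12.37 and 12.17 in control and 12.31, 12.14 and 11.98 in Mef2c-deficient arrays (-0.36 ± 0.31, SE). Tubb2b had 15.51, 14.83 and 16.02 in control and 14.78, 14.57 and 15.53 in Mef2c-deficient arrays (-0.49 ± 0.41, SE). Tubb4a and Tubb6 differed by less than their spread. Tubb4a had 7.78, 8.49 and 8.33 in control and 7.80, 8.19 and 8.82 in Mef2c-deficient arrays (0.07 ± 0.37, SE), and Tubb6 had 11.31, 10.90 and 11.38 in control and 10.35, 11.37 and 11.40 in Mef2c-deficient arrays (-0.15 ± 0.37, SE). The limma adjusted p of these 4 was 0.417 to 0.893. The signs of Tubb2a, Tubb4a and Tubb6 changed with the scaling.

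**Figure D3:**
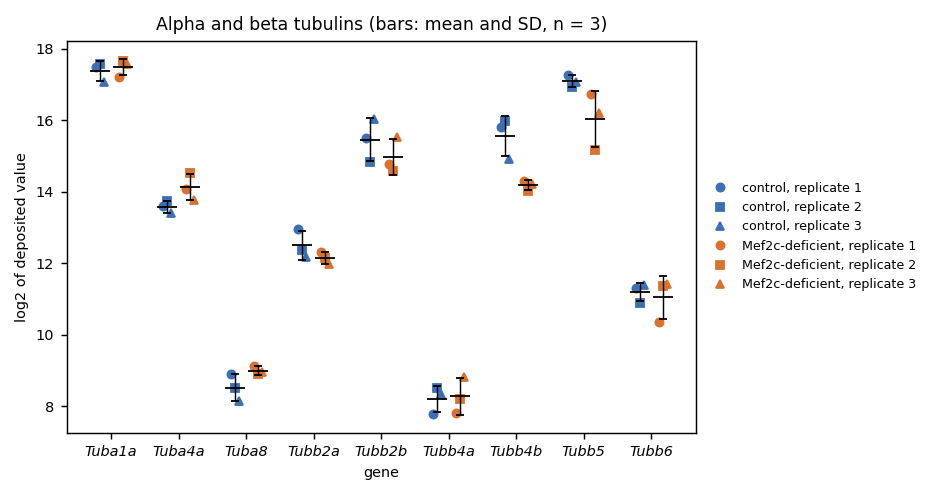
The vertical axis is log2 of the deposited value of the 9 alpha and beta tubulins tested, with blue points for control and orange points for Mef2c-deficient arrays and bars for the mean and SD of 3 arrays. Tubb4b and Tubb5 have all orange points below the blue ones, Tuba4a and Tuba8 have them above, and the other 5 overlap.

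Gamma-tubulin and its ring complex, which nucleate microtubules, had lower means for all 6 members tested under all 5 scalings. As deposited, 4 (66.7%) were lower at an unadjusted limma p under 0.05, against 20.9% of all genes, and the median was -1.06. At that threshold 1 was lower after quantile normalization, 1 after cyclic loess and 0 after centring on the kept probe sets or on the genes tested. Of all genes 11.1%, 10.2%, 10.7% and 6.48% were lower under these 4 scalings. Tubg1, the main gamma-tubulin, had 10.95, 10.40 and 11.38 in control and 10.29, 9.43 and 9.48 in Mef2c-deficient arrays, a difference of -1.17 ± 0.38 (SE, limma adjusted p = 0.136). Nedd1, which brings the ring complex to centrosomes and spindles, had 10.02, 9.76 and 10.02 in control and 7.89, 9.14 and 9.25 in Mef2c-deficient arrays, a difference of -1.17 ± 0.41 (SE, limma adjusted p = 0.148). Tubgcp2, a core subunit of the complex, had 11.78, 11.43 and 11.70 in control and 10.97, 10.85 and 8.92 in Mef2c-deficient arrays, a difference of -1.39 ± 0.55 (SE, limma adjusted p = 0.172). All 3 genes had groups that did not overlap, Nedd1 with its lowest array in Mef2c-deficient replicate 1 and Tubgcp2 in replicate 3. Each of these calls was lost without control replicate 1 or 3 (Tubg1 -1.15 and -0.94, Nedd1 -1.13 and -1.13, Tubgcp2 -1.32 and -1.36). The call of Tubgcp2 was also lost without control replicate 2 (-1.49) and that of Tubg1 without Mef2c-deficient replicate 2 (-1.02). Nedd1 and Tubgcp2 did not pass an unadjusted p of 0.05 in the t-test of the methods. Without Mef2c-deficient replicate 3 the difference of Tubgcp2 was -0.73. The other members of the complex, Tubgcp3, Tubgcp4 and Tubgcp6, differed by -0.94 to -0.92. Delta tubulin, a centriole protein (Tubd1), had 8.53, 7.68 and 8.55 in control and 7.73, 7.82 and 7.66 in Mef2c-deficient arrays (-0.52 ± 0.33, SE, limma adjusted p = 0.304). Its groups overlapped.

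The augmin complex binds the sides of existing spindle microtubules and has new ones nucleated there. All 8 subunits had a lower mean as deposited, 6 or 7 under the other scalings. Of the 8, 4 (50%) were lower at an unadjusted limma p under 0.05, against 20.9% of all genes, and the median was -1.07. Under the 4 other scalings 2 or 3 were lower at that threshold, against 6.48% to 11.1% of all genes. The median was then -0.78 to -0.53. Haus2 had 11.51, 11.28 and 11.67 in control and 9.91, 9.86 and 10.45 in Mef2c-deficient arrays, a difference of -1.41 ± 0.30 (SE, limma adjusted p = 0.0934). Haus6, the subunit that binds Nedd1, had 13.54, 13.25 and 13.52 in control and 12.33, 12.41 and 12.39 in Mef2c-deficient arrays, a difference of -1.06 ± 0.26 (SE, limma adjusted p = 0.102). Haus8, which binds microtubules, had 10.41, 9.62 and 10.16 in control and 7.76, 8.88 and 8.91 in Mef2c-deficient arrays, a difference of -1.55 ± 0.41 (SE, limma adjusted p = 0.110). These 3 subunits had groups that did not overlap, as did Haus5 (-1.11), together 50% of the subunits against 27.1% of all genes. The call of Haus6 was lost after cyclic loess (-0.51) and after centring on the genes tested (-0.60). Haus1, Haus3, Haus4 and Haus7 overlapped between groups, and Haus7 was highest of all 6 arrays in Mef2c-deficient replicate 1 (11.94) and lowest in replicate 3 (9.64).

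The 16 members of centriole assembly, which include Plk4, Stil and Sass6, all had a lower mean as deposited and 12 or 13 did under the other scalings. As deposited 8 (50%) were lower at an unadjusted limma p under 0.05, against 20.9% of all genes, and the median was -0.93. Under the 4 other scalings 3 or 4 were lower at that threshold, against 6.48% to 11.1% of all genes. The median was then -0.64 to -0.47. Cep76, which limits centriole copying to once per cycle, had 10.91, 10.74 and 10.25 in control and 9.26, 9.14 and 9.04 in Mef2c-deficient arrays, a difference of -1.49 ± 0.29 (SE, limma adjusted p = 0.0861). Its Mef2c-deficient arrays were close to each other and below all controls. Cep152 and Cep192, which recruit Plk4 to the centriole, differed by -1.70 and -0.66. For Cep152 the value in Mef2c-deficient replicate 3 was 7.53, against 9.36 and 10.07 in replicates 1 and 2, while for Cep192 replicate 3 was the highest of all 6 arrays (14.14). The centrins differed by -0.26 for Cetn2 and -0.012 for Cetn3, and in both Mef2c-deficient replicate 3 was above all controls. The gene Cep44 was represented by a probe set with a difference of -0.27, and its other probe set above the filter gave -0.89.

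Scaffold and linker members hold the centriole pair together and surround it. All 12 tested had a lower mean as deposited and 10 did under each other scaling. Groups did not overlap for 9 of the 12 (75%), against 27.1% of all genes. Of the 12, 6 (50%) were lower at an unadjusted limma p under 0.05, against 20.9% of all genes, and the median was -0.99. Without Cep72, which was above the filter in the control mean only, 5 of 11 were lower at that threshold, with a median of -0.95. Of all 12, 4 or 5 were lower at it under the 4 other scalings, against 6.48% to 11.1% of all genes. Their median was then -0.70 to -0.53. Cep70, which binds gamma-tubulin, had 11.02, 10.92 and 10.84 in control and 9.28, 9.47 and 7.44 in Mef2c-deficient arrays, a difference of -2.20 ± 0.54 (SE, limma adjusted p = 0.101). Cep128, a protein of the older centriole's subdistal appendages, had 12.32, 12.74 and 11.77 in control and 10.42, 11.33 and 10.42 in Mef2c-deficient arrays, a difference of -1.56 ± 0.39 (SE, limma adjusted p = 0.106). Cep72 had 8.96, 8.70 and 8.25 in control and 7.82, 6.43 and 6.94 in Mef2c-deficient arrays, a difference of -1.57 ± 0.42 (SE, limma adjusted p = 0.110). All 3 genes were below all controls in every Mef2c-deficient array. Cep250, the linker protein also known as C-Nap1, differed by -2.20 ± 0.64 (SE, limma adjusted p = 0.119), with 11.27, 11.91 and 11.89 in control and 9.86, 10.61 and 8.01 in Mef2c-deficient arrays. The 2 best known scaffold proteins differed less, Pcnt (pericentrin) by -0.65 and Cdk5rap2 by -0.89, both with groups that did not overlap and an unadjusted p just above 0.05 (0.0509 and 0.0520 in limma, adjusted p of 0.192 and 0.193).

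Cep genes of centriole appendages and cilia were lower for 8 of 9 tested (7 under each other scaling). Of the 9, 6 (66.7%) were lower at an unadjusted limma p under 0.05, against 20.9% of all genes, and the median was -1.34. Cep41 and Cep162 were above the filter in the control mean only, and without them 4 of 7 were lower at that threshold, with a median of -1.13. Of all 9, 4 or 5 were lower at it under the 4 other scalings, against 6.48% to 11.1% of all genes. Their median was then -1.05 to -0.88. Cep19 had 10.10, 9.79 and 11.11 in control and 7.77, 8.24 and 8.59 in Mef2c-deficient arrays, a difference of -2.14 ± 0.42 (SE, limma adjusted p = 0.0861). Cep41 had 8.37, 8.37 and 9.12 in control and 7.15, 7.19 and 6.58 in Mef2c-deficient arrays, a difference of -1.65 ± 0.34 (SE, limma adjusted p = 0.0933). Cep89, a distal appendage protein, had 12.90, 13.09 and 13.27 in control and 12.19, 11.62 and 11.02 in Mef2c-deficient arrays, a difference of -1.47 ± 0.36 (SE, limma adjusted p = 0.102). In all 3 genes every Mef2c-deficient array was below every control array. Cep164, the distal appendage protein needed for cilium formation, differed by -1.13, and Cep131, a protein of the satellites around the centrosome, by 0.012. At the spindle poles, Numa1, a protein that tethers microtubules there and lies in the nucleus between divisions, had 11.92, 11.59 and 11.68 in control and 11.96, 11.91 and 9.04 in Mef2c-deficient arrays, so that its lower mean came from replicate 3 (-0.76 ± 0.75, SE, limma adjusted p = 0.481).

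Numa1 was the clearest of several members that were far lower in Mef2c-deficient replicate 3 than in the other 2, among them Cep63 (12.33, 12.44 and 10.25 in replicates 1 to 3), Cep43 (13.34, 13.74 and 11.62), Cep250 and Tubgcp2. In replicate 3 the 11 plasmacytoid dendritic markers had a median of 4.24 log2 units above the control mean and the 9 neutrophil markers 4.80, while the 12 pre-B markers had -1.23. In Mef2c-deficient replicate 1 these medians were 0.57, -0.01 and -0.37, and in replicate 2 they were 1.11, -1.08 and -0.86. Control replicate 3 had 0.83, 1.12 and 0.06. The part of other cells in the members' differences was not tested. Without Mef2c-deficient replicate 3 the median difference of the members other than the 7 listed for dividing cells was -0.73, and that of the 7 was -2.70.

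**Figure D4:**
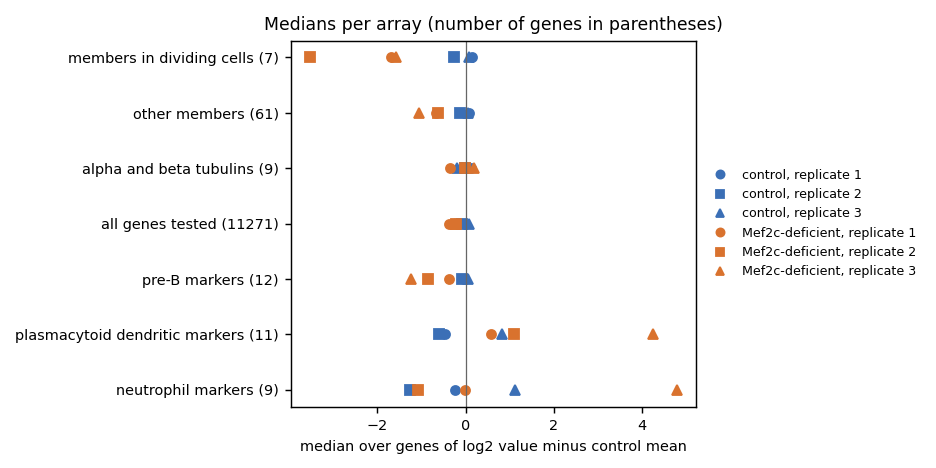
Each point is the median over the genes of a list of the log2 value of an array minus the mean of the 3 control arrays, with the number of genes in parentheses, blue for control and orange for Mef2c-deficient, and circles, squares and triangles for replicates 1, 2 and 3. The members listed for dividing cells are lowest in replicate 2 (-3.53), the other members in replicate 3 (-1.05), and the markers of plasmacytoid dendritic cells and neutrophils are highest in replicate 3 (4.24 and 4.80).

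Genes of the same structures that the name rule did not take were read from lists. Of all genes tested, 62.3% had a lower mean, with a median of -0.36. At an unadjusted limma p under 0.05, 20.9% of all genes were lower and 5.32% higher. Of 35 further centrosome and centriole genes, 29 were tested, 28 had a lower mean, 19 were lower at an unadjusted limma p under 0.05 and 1 was higher, with a median of -1.13. The 3 with the smallest p were Nek2, the kinase that parts the centrosome pair (-2.67 ± 0.53, SE, limma adjusted p = 0.0895), Alms1, a protein at the base of centrioles (-1.57 ± 0.32), and Odf2, a subdistal appendage protein (-1.70 ± 0.37). The gene that was higher, named after its value was seen, was Plk3 (0.85 ± 0.31, SE, limma adjusted p = 0.157). Bbs4, counted among the 19 that were lower, was above the filter in the control mean (8.50) but not in the Mef2c-deficient mean (7.02). Of 25 further spindle genes, 24 were tested, 22 had a lower mean, 14 passed an unadjusted p of 0.05 as lower and 0 as higher and a median of -1.54. Examples were Hmmr (-2.77 ± 0.51), Dlgap5 (-2.12 ± 0.37) and Tacc3 (-1.93 ± 0.37), all of which act on spindle microtubules. Dlgap5, counted among the 14, was above the filter in the control mean (8.57) but not in the Mef2c-deficient mean (6.45). As with the members listed for dividing cells, Mef2c-deficient replicate 2 was the lowest array for most of the further spindle genes (15 of 24). Of 24 genes that bind or sever microtubules, 18 were tested, 17 had a lower mean, 10 passed an unadjusted p of 0.05 as lower and 0 as higher and a median of -1.09, and the 3 with the smallest p were Map7 (-2.44 ± 0.32, SE), Ckap2 (-2.44 ± 0.35) and Fignl1 (-2.18 ± 0.49).

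Genes that fold and modify tubulin were read in the same way, beside the 20.9% of all genes that were lower and the all-gene median of -0.36. Of 21 folding cofactors and chaperonin subunits, 19 were tested, 13 had a lower mean, and 3 were lower and 1 higher at an unadjusted limma p under 0.05. Their median was -0.44 as deposited and -0.15 to 0.06 under the other scalings. The 3 with the smallest p were the cofactor Tbcc (-1.10 ± 0.29, SE, limma adjusted p = 0.109), the chaperonin subunit Cct3 (1.59 ± 0.44, SE, limma adjusted p = 0.114) and Pdcl3 (-1.11 ± 0.38, SE, limma adjusted p = 0.146). The Cct3 probe set was dim in control arrays (7.28, 7.23 and 7.13). It was above the filter in the Mef2c-deficient mean (8.80) but not in the control mean (7.21). Of 18 tubulin-modifying enzymes, 13 were tested, 9 had a lower mean, 2 passed an unadjusted p of 0.05 as lower and 0 as higher and a median of -0.55 (-0.26 to -0.08 under the other scalings). These 2 were the glutamylases Ttll1 (-1.51 ± 0.44, SE) and Ttll5 (-1.52 ± 0.60, SE), and the third by p was the tyrosine ligase Ttl (0.995 ± 0.43, SE, limma adjusted p = 0.192). Ttl was above the filter in the Mef2c-deficient mean (7.94) but not in the control mean (6.94). Atat1, counted among the 9 with a lower mean, was above it in the control mean (8.64) but not in the Mef2c-deficient mean (6.49).

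**Figure D5:**
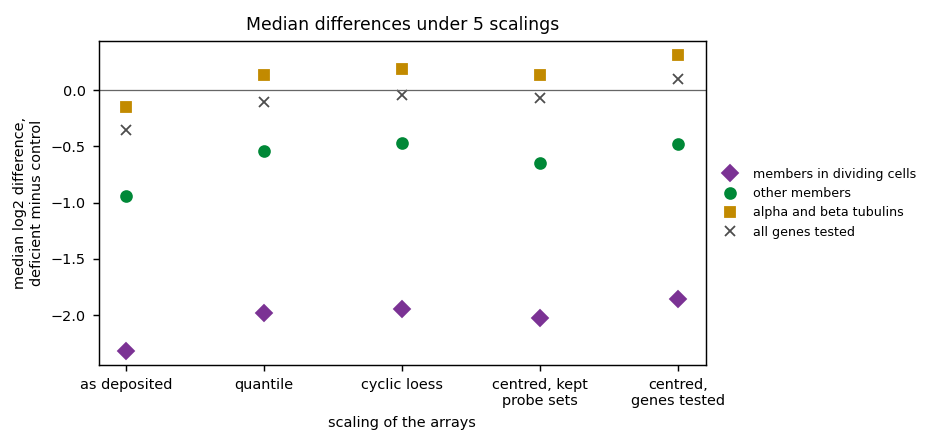
The vertical axis is the median log2 difference, Mef2c-deficient minus control, and the horizontal axis the 5 ways the arrays were scaled. The 7 members listed for dividing cells stay between -2.32 and -1.86 and the other 61 between -0.94 and -0.47, while the 9 alpha and beta tubulins pass from -0.15 to between 0.14 and 0.31, and all genes tested run from -0.36 to 0.10.

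The other 9 members were below the filter and were not tested: Tuba3b, Tubb1, Tubb3, Tubg2, Tube1, Cep112, Cep126, Cep290 and the pseudogene Tubb2a-ps2. Of these, 2 had a lower mean in Mef2c-deficient arrays, Tube1 and Cep290, and 7 a higher mean. The rule also took Cep83os, a long noncoding RNA beside Cep83 (-0.30), and Cep295nl (0.26), which stand in no role list. For 11 tested members the probe set has a suffix (_s_at, _x_at or _a_at) that marks probes which can match more than 1 transcript or gene. Without such probe sets 27 of the 57 members tested (47.4%) were lower at an unadjusted limma p under 0.05, against 20.5% of all genes. Of the 34 members with a lower unadjusted p, 13 kept it under every alternative to the processing in which they were tested: Plk4, Cep76, Haus2, Haus8, Cep70, Cep72, Cep128, Cep19, Cep41, Cep89, Aspm, Tpx2 and Cep55. Of these, Cep72 and Cep41 were above the filter in the control mean only, and were tested in 18 and 19 of the 20 fits, the reported one included.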

How the data were processed

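Pre-B cell RNA from 3 control and 3 Mef2c-deficient samples, grouped by the genotype labels, was measured on Affymetrix expression arrays for mouse. The authors deposited linear intensity values for 23913 probe sets and 6 arrays. Per the study's methods robust multiarray averaging made these values, with background adjustment, quantile normalization and a summary per probe set, and probes called absent or marginal in most arrays were left out. The submitters' processing notes name RMA and limma, with versions not given in the sources used here. Quantile normalization sets the arrays to 1 distribution before deposit. The deposited values, however, do not share 1 distribution, with array medians of 236 to 285. Quantile normalization applied to them again moved the median difference of all genes from -0.36 to -0.10. Since the arrays were scaled to each other before deposit, changes shared by most genes cannot be read from the values.

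Values were taken to log2 without an offset. Probe sets with exactly 1 symbol in the platform annotation and a mean above a floor of 7.26 (log2; the 40th percentile) were kept, with 1 probe set per gene (highest mean), leaving 11271 genes. The test was that of limma 3.58.1, run in R 4.3.3 (group as the only term, default eBayes, two-sided, Benjamini-Hochberg adjustment over all genes, threshold 0.05). The procedure was tested on simulated data. The number of arrays limits the precision.

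Members, role lists and marker lists were chosen with earlier results of these data known. Values in every array are given for the 3 members of each role with the smallest unadjusted p, all alpha and beta tubulins tested and the 7 members listed as expressed mainly in dividing cells. Those of Cep250 and Numa1 are given for their pattern over arrays. For the same reason the values of Cep43, Cep63, Cep152, Cep192 and Haus7 are given in some Mef2c-deficient arrays, without those of the controls. From each pathway list the 3 genes with the smallest p are named. Promoters are RefSeq windows of build GRCm38.p6.

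Deviations from the group mean were correlated between control and Mef2c-deficient arrays with equal replicate numbers (r across genes of 0.348, 0.226 and 0.373, against -0.309 to 0.129 for other pairs). What the numbers mark is not in the labels. The pairing rests on these correlations, and a blocked fit was among the alternatives. The others were the filter, scalings, probe set rules, variance models, array weights, an offset of 16, the methods' t-test and leaving out each array.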

Additional observations from a re-analysis of the deposited data

How the results depend on the processing

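The number of members lower at an unadjusted limma p under 0.05, 34 as reported, was 22 with quantile normalization, 22 with cyclic loess, 22 with centring on the kept probe sets, 17 with centring on the genes tested (an alternative chosen after seeing the data) and 22 with the methods' t-test. In the same order, 11.1%, 10.2%, 10.7%, 6.48% and 16.9% of all genes were lower. The number higher, 0 as reported, was 1 with quantile normalization, 1 with cyclic loess and 1 with array weights (Tuba4a), where 814, 931 and 1005 of all genes were higher. It was 2 with centring on the kept probe sets and 2 with centring on the genes tested (Tuba4a and Tuba8), where 1581 and 2278 of all genes were higher. The number with a limma adjusted p under 0.05 was 19 with array weights, where 1154 of all genes passed, and 0 to 5 when an array was left out, with 5 without Mef2c-deficient replicate 3. Leaving out an array gave 23 to 38 members lower and 0 to 1 higher (Tuba4a, without Mef2c-deficient replicate 3). In the same fits 12.4% to 23.7% of all genes were lower, and 239 to 797 genes were higher. In a blocked fit that pairs arrays by number, 36 members (52.9%) were lower at an unadjusted limma p under 0.05, against 23.1% of all genes. The blocked fit gave 0 members with a limma adjusted p under 0.05. It changed no call of a member with values given in every array by the naming rule.

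The median difference of the members was -1.14 to -0.79 when an array was left out and -0.50 when arrays were centred on the genes tested. The sign of Tubb2a changed to 0.14, 0.19 and 0.11 with quantile normalization, cyclic loess and centring on the genes tested. That of Tubb6 changed to 0.27, 0.31, 0.14 and 0.31 with quantile normalization, cyclic loess and centring on the kept probe sets and on the genes tested, and ran from -0.33 to 0.19 when an array was left out. That of Tubb4a changed to -0.071 with quantile normalization and -0.080 with cyclic loess, and ran from -0.21 to 0.30 when an array was left out. Tuba1a ran from -0.045 to 0.24 when an array was left out. The cause of these changes was not tested. Over all named members, 492 values under an alternative kept their direction and side of the unadjusted threshold, 43 no longer passed it, 9 newly passed it and 13 changed sign. In the fit as reported, with 3 arrays in each group, the members' differences at 0.05 did not withstand adjustment over all genes. The fit with array weights, in which 19 members passed, gave control replicate 1 a weight of 7.73. The weights of the other arrays in it were 0.25 to 1.52.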

Other observations

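Among the genes read from lists outside the name rule, Plk2, Kif2c and Aurkb are described here, chosen after their values were seen. They are 3 of several kinase or motor genes with differences larger than those of most members, Nek2 (-2.67) and Kif18b (-2.67) being others. Plk2, a polo-like kinase with a part in centriole copying, had log2 values of 12.69, 13.58 and 11.22 in control and 10.29, 9.42 and 7.70 in Mef2c-deficient arrays (-3.36 ± 0.79, SE, limma adjusted p = 0.0971). Plk3, another polo-like kinase, had 8.46, 8.33 and 7.77 in control and 8.86, 9.34 and 8.91 in Mef2c-deficient arrays, above all controls. Plk1 differed by -1.76 ± 0.51 (SE, limma adjusted p = 0.121). Plk1, Plk2 and Plk4 were below all controls in every Mef2c-deficient array and Plk3 above them. Of all genes, 27.1% had all Mef2c-deficient arrays below all controls and 10.6% had them above. Kif2c, a motor that takes microtubules apart, had 12.89, 12.39 and 12.70 in control and 10.50, 8.39 and 10.57 in Mef2c-deficient arrays (-2.84 ± 0.59, SE, limma adjusted p = 0.0933), and Aurkb, the Aurora kinase of the chromosome passenger complex, had 12.48, 12.57 and 12.66 in control and 10.65, 8.22 and 10.53 in Mef2c-deficient arrays (-2.77 ± 0.63, SE, limma adjusted p = 0.0950). Both had their lowest value in Mef2c-deficient replicate 2.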
